A study of Mus musculus with 12 samples.

Results

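The comparison described here asked in which genes nicotinamide riboside (NR) had a different effect in long-term than in short-term hematopoietic stem cells (LT-HSCs and ST-HSCs). It used all 12 of the 12 libraries of the study. For each gene, the log2 change with NR in ST-HSCs was subtracted from that in LT-HSCs. A negative difference therefore means a smaller rise or a larger fall in LT-HSCs. There were 4 groups of 3 samples, each cell type without NR (control) and with it. All were sorted from mouse bone marrow as lineage-negative cells positive for Kit, Sca1 and CD150 and negative for CD48. The LT-HSC gate was CD34-negative and the ST-HSC gate CD34-positive. Every group, controls included, was cultured for 2 days in Stemline II medium with SCF at 100 ng/ml and Flt3 at 2 ng/ml. The NR groups also received 1 mM NR, given again after 24 h. The labels name no strain, age or sex of the mice, nor whether samples were separate mice, pools or cultures. The p-values therefore reflect only how much these libraries vary within a group, and that variation may be technical.

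NR is a form of vitamin B3 that cells phosphorylate through the NR kinases and convert to nicotinamide adenine dinucleotide (NAD), the redox cofactor that sirtuins and PARP enzymes also consume. LT-HSCs are mostly quiescent in the marrow and repopulate a host for the longest time, while ST-HSCs lie next to them in the hierarchy and sustain blood formation for a shorter period. Culture with cytokines brings both into cycle. A pair of stress pathways recurs below: p53, a transcription factor that induces cell cycle inhibitors and death receptors, and the integrated stress response, in which ATF4 induces amino acid synthesis, amino acid transport and tRNA charging genes.

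The libraries held 24.6 M to 35.5 M gene counts each. The RNA of the sort markers followed the gates in part. In control culture Cd34 lay at 247 to 270 CPM, the counts scaled to a common library size, in LT-HSCs and at 606 to 639 CPM in ST-HSCs, and Kit lay between 1340 and 1720 CPM in all libraries. Cd48 averaged 2.32 CPM, with 0.63 to 1.01 CPM in control LT-HSCs and 3.86 to 6.25 CPM in control ST-HSCs. Slamf1, the gene of CD150, lay at 35.25 to 43.5 CPM in control LT-HSCs and at 17.6 to 20.2 CPM in control ST-HSCs. Ly6a, the gene of Sca1, lay at 28.9 to 47.6 CPM in control LT-HSCs but only at 5.51 to 7.38 CPM in control ST-HSCs. Markers of other blood lineages were not uniformly low. Cd3e, Cd79a and Hba-a1 each averaged under 1 CPM, whereas the myeloid gene Lyz2 averaged 324 CPM. The lymphoid markers Cd79b and Nkg7 averaged 30 and 34.2 CPM, and the erythroid markers Hbb-bt and Car2 27.2 and 2000 CPM. Reads in no annotated gene made up 8.69% to 28.5% of a library. They were most frequent in sample 3 of the NR LT-HSCs (28.5%) and in that of the NR ST-HSCs (26.2%), and at most 17% in a control library.

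The NR response differed between the cell types past the threshold in a pair of genes, both of them p53 targets that rose less in LT-HSCs. Of 19830 genes tested, 2 had a lower NR change in LT-HSCs at an adjusted p under 0.05 (0.0101%) and 0 a higher one (0%; edgeR's quasi-likelihood test, Benjamini-Hochberg adjusted). At an unadjusted p under 0.05 there were 628 lower (3.17%) and 573 higher (2.89%). Among the 10473 genes at a mean of 5 CPM or more these counts were 534 and 485, together 9.73%. The list counts at that p given below stand beside these shares. DESeq2 called 95 lower and 41 higher genes on the same counts. NR on its own changed many more genes. With NR 472 genes rose (2.38%) and 1503 fell (7.58%) in LT-HSCs, while 1154 rose (5.82%) and 2190 fell (11%) in ST-HSCs. Among the 381 genes that rose in both cell types, 319 (83.7%) rose less in LT-HSCs, and the median gene had an LT-HSC change 0.722 times the ST-HSC change. Among the 1170 that fell in both, 652 (55.7%) fell less in LT-HSCs, with a median ratio of 0.96. No gene (0 of 19830) passed the threshold in both cell types with opposite signs.

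The precision of these differences depended on the level of the gene. For the 10473 genes at a mean of 5 CPM or more, the median standard error was 0.138 on the log2 scale, and in 94.8% of them the 95% interval of the difference lay within 1 log2 unit on either side of 0. Below 5 CPM the median standard error was 1.23 and 4.81% of intervals were that narrow, so differences of low genes were mostly not detectable at this depth and replicate number. In counts simulated for this contrast over 19830 genes, genes at 5 CPM or more whose difference was 1.5-, 2- and 4-fold were recovered in 29.6%, 73% and 100% of cases. Apart from the changed genes, the simulation gave each gene the same mean in all groups and the spread typical of its level, not its own spread. Of the real genes at 5 CPM or more, 38 had an estimated difference over 1 log2 unit and 2 passed the adjusted threshold. The simulated shares therefore need not hold for these libraries.

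Cdkn1a (ENSMUSG00000023067) encodes p21, the inhibitor of cyclin-dependent kinases that p53 induces. Control LT-HSCs held 30.0, 31.0 and 30.5 CPM in samples 1 to 3, and NR LT-HSCs 77.5, 98.0 and 72.1 CPM. Control ST-HSCs held 19.78, 21.03 and 20.78 CPM, and NR ST-HSCs 149.1, 128.5 and 127.6 CPM. The 4 groups did not overlap, and their order reversed: LT-HSCs were above ST-HSCs in control culture and below them with NR. The NR change was 1.44 ± 0.11 (log2, SE) in LT-HSCs and 2.72 ± 0.11 in ST-HSCs, a difference of -1.28 ± 0.15 (95% interval -1.60 to -0.96, adjusted p = 0.0235). LT-HSCs exceeded ST-HSCs by 0.57 ± 0.11 without NR, and with NR their difference from ST-HSCs was -0.71 ± 0.10.

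Phlda3 (ENSMUSG00000041801), which encodes a p53-induced protein that competes with Akt for membrane lipids, had the same pattern. Control LT-HSCs held 9.97, 12.85 and 11.97 CPM and NR LT-HSCs 38.5, 43.9 and 36.6 CPM. Control ST-HSCs held 6.04, 6.87 and 5.55 CPM and NR ST-HSCs 76.3, 58.1 and 52.9 CPM. Again all 4 groups were apart from each other, with NR ST-HSCs highest and control ST-HSCs lowest. The NR change was 1.77 ± 0.15 in LT-HSCs and 3.35 ± 0.16 in ST-HSCs, and the difference was -1.57 ± 0.21 (95% interval -2.02 to -1.12, adjusted p = 0.0478). Both calls were close to the threshold. Leaving out any 1 of the 6 control libraries, or NR LT-HSC sample 1, ended both, with adjusted p up to 0.162 for Cdkn1a and 0.28 for Phlda3. Leaving out NR LT-HSC sample 2 or 3 also ended that of Phlda3. The differences themselves ran from -1.45 to -1.19 for Cdkn1a and from -1.74 to -1.40 for Phlda3 over the 23 other settings.

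**Figure D1:**
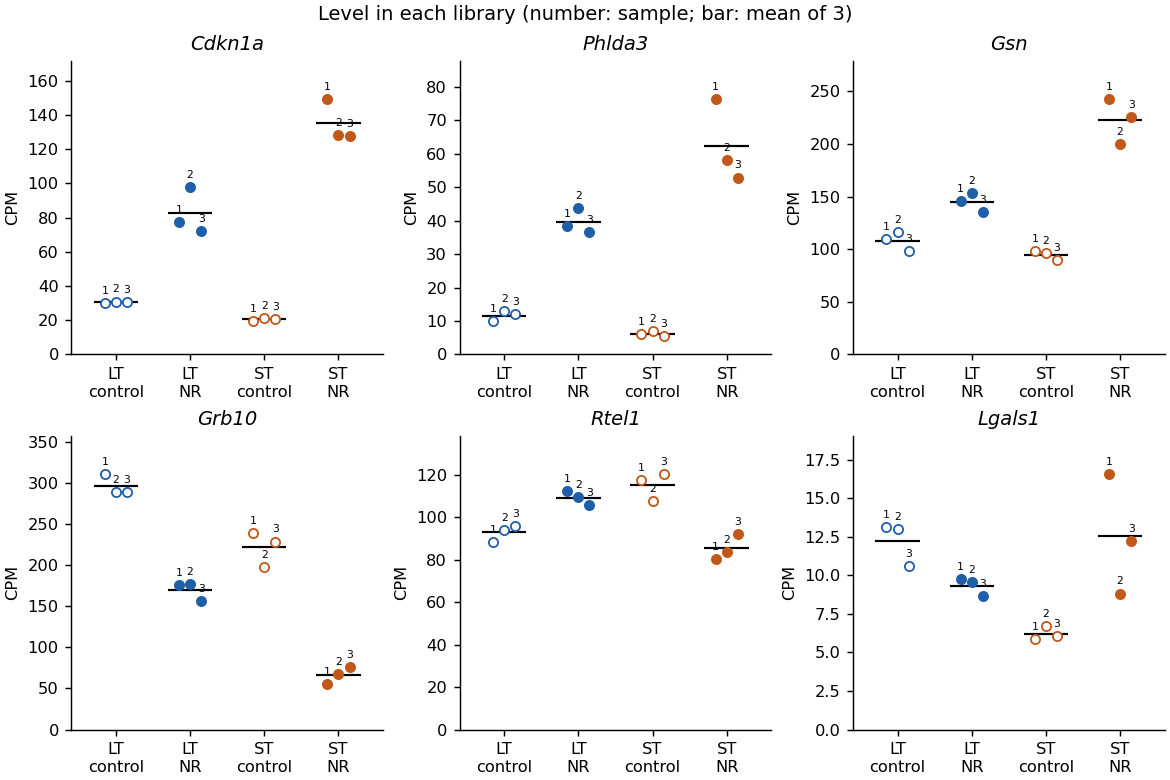
Level in CPM (vertical axis, from 0) of 6 genes in each of the 12 libraries, by group (horizontal axis). Open points are controls, filled points NR, and the bar is the mean of 3. Cdkn1a and Phlda3 rise in both cell types and end highest in NR ST-HSCs. The NR libraries of Rtel1 and Lgals1 lie on opposite sides of their controls in LT-HSCs and ST-HSCs. The LT-HSC change of each of these missed the threshold.

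The sequences before the start are given for the called pair, to show where letters of a p53 site lie in them, and for Ddit4l, whose estimated difference was larger still. Shown are 250 bases upstream from RefSeq (build GRCm38.p6), in lower case with matches to the p53 half-site in capitals. The lines are chr17:29090729-29090978 on the plus strand (the upstream one of a pair of Cdkn1a starts in RefSeq), chr1:135765835-135766084 on the plus strand and chr3:137623422-137623671 on the plus strand.
Cdkn1a: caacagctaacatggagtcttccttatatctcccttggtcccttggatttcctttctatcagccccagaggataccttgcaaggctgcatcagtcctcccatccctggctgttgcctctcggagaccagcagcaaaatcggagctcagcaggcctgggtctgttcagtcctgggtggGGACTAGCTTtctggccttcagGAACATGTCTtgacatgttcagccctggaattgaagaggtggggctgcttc
Phlda3: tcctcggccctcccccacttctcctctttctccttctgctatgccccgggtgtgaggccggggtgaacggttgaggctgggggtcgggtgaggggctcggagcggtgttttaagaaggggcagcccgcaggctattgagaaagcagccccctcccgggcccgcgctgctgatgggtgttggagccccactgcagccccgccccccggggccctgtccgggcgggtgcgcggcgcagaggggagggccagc
Ddit4l: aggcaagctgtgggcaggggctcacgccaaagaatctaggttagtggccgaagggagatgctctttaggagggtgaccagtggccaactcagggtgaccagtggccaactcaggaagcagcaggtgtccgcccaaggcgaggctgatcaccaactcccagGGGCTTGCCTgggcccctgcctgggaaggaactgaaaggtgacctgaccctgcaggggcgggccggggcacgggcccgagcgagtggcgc
The half-site is 10 bases long and its letter classes read the same on both strands. Cdkn1a held 2 matches, beginning 73 and 51 bases before the start and separated by at most 13 bases, and such a pair occurred in 0.0639% of the 32841 promoters of that length in the table. Only full matches are marked. The 10 bases directly after the second Cdkn1a match miss the pattern only at their first base and so stay in lower case. Ddit4l held 1 match, and the Phlda3 window held none, which says only that these letters are not in this window. Any match occurred in 7.13% of all promoters and in 22.4% of the 49 promoters matched to 35 of the 45 tested p53 targets. These matches describe the sequence and were not tested as binding sites.

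Most other p53 targets had the same sign. Of the 45 tested members of the list, 39 had a negative difference and 6 a positive one, with a median of -0.49. The median was 0.05 over all tested genes and -0.003 over those at 5 CPM or more. Negative differences made up 86.7% of this list, beside 42.8% of all tested genes and 50.9% of those at 5 CPM or more. They also made up 85.4% of cytosolic ribosomal protein and 81.1% of complex I genes, with medians of -0.07 and -0.02. The share of negative signs alone was thus not particular to p53 targets. An unadjusted p under 0.05 was reached by 25 members with a lower NR change in LT-HSCs and by 0 with a higher one, beside the 3.17% and 2.89% of all genes given above. The adjusted threshold was passed by 2 members, against 13 with DESeq2, 9 without a low-count filter and 5 among genes at a mean of 5 CPM or more. The list was put together with earlier results of these libraries known, so its direction is not independent evidence. In LT-HSCs 25 members rose with NR and in ST-HSCs 34, and 0 fell in either. Of the 25 that rose in both, 24 rose less in LT-HSCs, and the median ratio of the LT-HSC to the ST-HSC change was 0.596, beside 83.7% and 0.722 for all genes that rose in both.

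Ddit4l, an inhibitor of mTOR signalling, lay at 2.10, 2.59 and 3.03 CPM in control LT-HSCs and 10.7, 13.8 and 9.66 CPM with NR. In ST-HSCs it went from 1.08, 0.72 and 0.74 CPM to 14.9, 11.3 and 11.7 CPM. The groups with and without NR did not overlap in either cell type, and the difference of the changes was -1.75 ± 0.30 (adjusted p = 0.142). Tnfsf4, the gene of the ligand of the costimulatory receptor OX40, had a difference of -1.28 ± 0.26, Eda2r, a death receptor of the TNF receptor family, one of -1.09 ± 0.26, and Trp53inp1, a cofactor of p53, one of -0.80 ± 0.19. Gdf15, which encodes a stress-induced secreted factor, had -1.001 ± 0.27, and the adenylate kinase gene Ak1 -0.82 ± 0.17. Mdm2, whose product degrades p53, had a smaller difference of -0.32 ± 0.11. Each of these genes lay above its controls without overlap in ST-HSCs, and all but Ak1 did so in LT-HSCs too. The adjusted p of these 6 genes ran from 0.226 to 0.621, so none of them passed the threshold.

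Genes just behind the called pair were of other kinds. Gsn, which encodes the actin-severing protein gelsolin, rose from 109.6, 116.6 and 98.2 CPM to 146.0, 153.5 and 135.2 CPM in LT-HSCs. In ST-HSCs it rose from 98.2, 96.0 and 89.7 CPM to 242.3, 200.3 and 225.6 CPM, and NR libraries were above all controls in both cell types. Its difference was -0.81 ± 0.12 (adjusted p = 0.0779). Grb10, an imprinted adaptor of insulin and growth factor receptors, fell in both. It went from 310.3, 288.9 and 288.6 CPM to 175.7, 176.9 and 156.8 CPM in LT-HSCs and from 238.7, 197.9 and 228.7 CPM to 55.9, 67.8 and 75.8 CPM in ST-HSCs. The fall was smaller in LT-HSCs by a difference of 0.94 ± 0.15 (adjusted p = 0.0883). Without NR ST-HSC sample 2, Gsn passed the threshold (adjusted p = 0.0232). With any other single library left out it did not (adjusted p up to 0.319). Over all 23 alternatives Gsn passed in 9 and Grb10 in 8. Predicted genes, clones, pseudogenes and genes without a symbol of their own set aside, 20 genes at 5 CPM or more had the smallest p. Of these, 12 had a negative and 8 a positive difference.

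**Figure D2:**
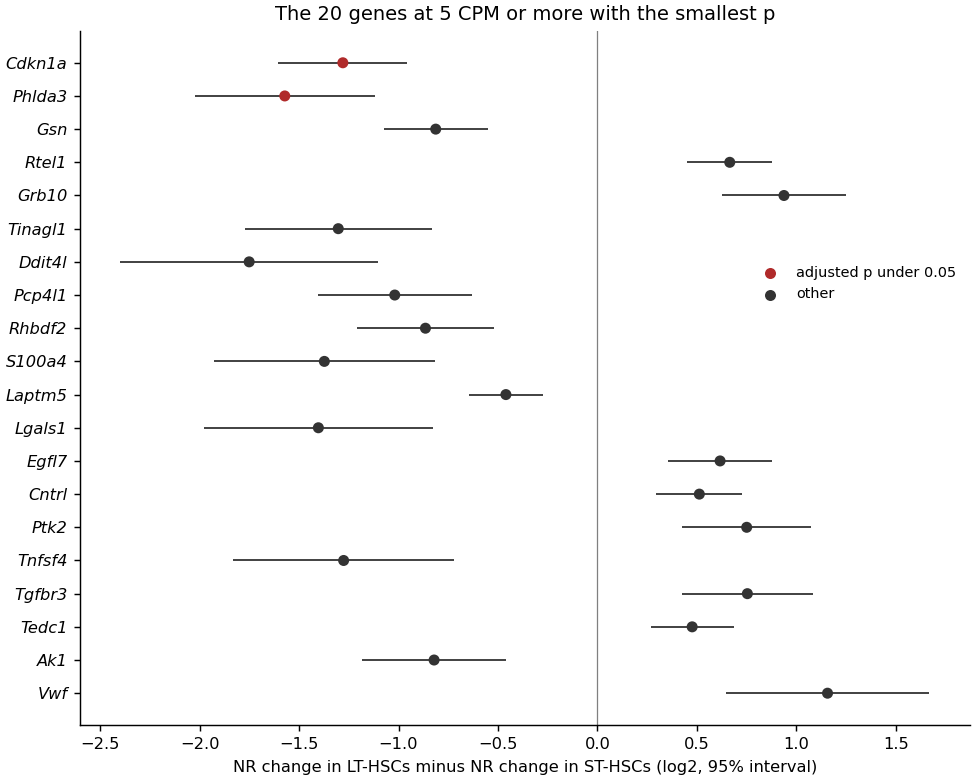
Difference of the NR changes (horizontal axis, log2, LT-HSC minus ST-HSC) with its 95% interval for the 20 genes at 5 CPM or more with the smallest p, smallest at the top. Predicted genes, clones, pseudogenes and genes without a symbol of their own are not among the 20. Cdkn1a and Phlda3 (red) passed an adjusted p of 0.05, and the interval of Ddit4l, at -2.40 to -1.10, is the widest.

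Among those that rose in both cell types, and less in LT-HSCs, were the matrix protein gene Tinagl1 (-1.30 ± 0.22), the calcium-binding protein gene S100a4 (-1.37 ± 0.26) and Laptm5, which encodes a lysosomal membrane protein of blood cells (-0.46 ± 0.09). Rhbdf2, whose product iRhom2 carries the sheddase ADAM17 to the cell surface, had -0.86 ± 0.16. Among those that fell in both, and less in LT-HSCs, were Egfl7, a secreted factor of vessels and stem cells (0.62 ± 0.12), and Tgfbr3, a co-receptor for TGF-beta (0.75 ± 0.15). The centrosome genes Cntrl (0.51 ± 0.10) and Tedc1 (0.48 ± 0.10) and the focal adhesion kinase gene Ptk2 (0.75 ± 0.15) fell in ST-HSCs only past the threshold, with NR and control libraries overlapping in LT-HSCs. Adjusted p for the difference ran from 0.142 to 0.226 for these 9 genes, and S100a4 passed without NR ST-HSC sample 2 (adjusted p = 0.0455). With any other single library left out S100a4 did not pass (adjusted p up to 0.564).

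The scale matters for genes that start at different levels. Tinagl1 averaged 42.2 CPM in control and 64.5 CPM in NR LT-HSCs, and 7.20 and 27.2 CPM in ST-HSCs. Its rise was thus larger by 2.33 CPM in LT-HSCs although its log2 change was smaller there. Vwf, the gene of von Willebrand factor and a marker of platelet-biased stem cells, fell from 677.3, 684.8 and 589.0 CPM to 344.5, 317.3 and 265.1 CPM in LT-HSCs. In ST-HSCs it fell from 303.4, 302.6 and 270.5 CPM to 44.3, 82.2 and 60.3 CPM. NR libraries were below all controls of their cell type. The log2 fall was smaller in LT-HSCs, by a difference of 1.16 ± 0.24 (adjusted p = 0.226). Adjusted p was 0.0232 without NR ST-HSC sample 2, but ran up to 0.564 with another single library left out. In CPM, by contrast, the difference of the changes was -111.5, a larger fall in LT-HSCs. All other differences in this text are on the log2 scale.

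Genes that moved in opposite directions were few. Counting genes at 5 CPM or more whose NR and control libraries did not overlap in either cell type, 10 were higher with NR in LT-HSCs and lower in ST-HSCs (0.0955% of 10473), and 12 the reverse (0.115%). This count was added after the data had been seen. Rtel1, a helicase that protects telomeres, lay at 88.3, 94.1 and 96.0 CPM in control LT-HSCs and 112.2, 109.5 and 105.8 CPM with NR. In ST-HSCs it went from 117.3, 107.4 and 120.1 CPM to 80.4, 83.5 and 92.0 CPM. The difference was 0.67 ± 0.10 (adjusted p = 0.0779), and the change passed the threshold in ST-HSCs (-0.43 ± 0.07, adjusted p = 0.00107) but not in LT-HSCs (0.23 ± 0.07, adjusted p = 0.0523). In 7 of the 23 alternatives the difference of Rtel1 passed. Lgals1, the gene of the glycan-binding protein galectin-1, lay at 13.17, 12.98 and 10.58 CPM in control LT-HSCs and 9.79, 9.55 and 8.66 CPM with NR. In ST-HSCs it went from 5.87, 6.72 and 6.07 CPM to 16.6, 8.82 and 12.2 CPM. The change of Lgals1 passed the threshold in ST-HSCs (1.01 ± 0.19, adjusted p = 0.0027) but not in LT-HSCs (-0.39 ± 0.19, adjusted p = 0.248). Its difference was -1.40 ± 0.27 (adjusted p = 0.226) and passed in 4 of the 23 alternatives. Among single libraries left out, it passed without NR ST-HSC sample 2 (adjusted p = 0.0232). With any other single library left out it did not pass (adjusted p up to 0.564).

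Most genes of the integrated stress response fell with NR, and the estimated falls were smaller in LT-HSCs. Of 46 tested members, 31 passed the threshold with a fall in LT-HSCs, 35 in ST-HSCs and 31 in both. All of these 31 fell less in LT-HSCs, with a median ratio of 0.719, beside 55.7% and 0.96 for all genes that fell in both. The difference was positive in 40 members and negative in 6, with a median of 0.23. An unadjusted p under 0.05 was reached by 15 members with a higher NR change in LT-HSCs and 3 with a lower one, and 0 passed the adjusted threshold (5 higher and 3 lower with DESeq2). The 3 lower ones, Gdf15, Sesn2 and Ddit4, rose with NR in ST-HSCs, and at least the first 2 are p53 targets as well. Ddit4 did not pass the threshold in LT-HSCs.

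Asns, which encodes asparagine synthetase and is a standard target of ATF4, fell from 276.4, 294.6 and 284.3 CPM to 104.9, 128.5 and 105.1 CPM in LT-HSCs. In ST-HSCs it fell from 313.8, 289.8 and 324.8 CPM to 50.3, 83.2 and 90.9 CPM. All 3 NR ST-HSC libraries were below all NR LT-HSC libraries, and the difference was 0.71 ± 0.23 (adjusted p = 0.591). Trib3, a pseudokinase that feeds back on ATF4, had 0.69 ± 0.16. Aldh18a1, which makes the proline precursor, had 0.60 ± 0.14, and the neutral amino acid transporter gene Slc1a4 had 1.23 ± 0.45. Chac1, a glutathione-degrading enzyme, had 1.19 with a 95% interval of -0.26 to 2.64, Pycr1, the last enzyme of proline synthesis, 0.67 with -0.26 to 1.61, and the branched-chain transaminase gene Bcat1 0.69 with -1.39 to 2.75. Among 20 aminoacyl-tRNA synthetase genes, whose products charge tRNAs, 17 had a positive difference and 3 a negative one, with a median of 0.17 and 9 higher at an unadjusted p under 0.05. Cars had the largest of those named (0.78 ± 0.21), followed by Iars (0.48 ± 0.13), Lars (0.36 ± 0.10) and Aars (0.33 ± 0.09). That count of 9 was 5 without control LT-HSC sample 3, NR LT-HSC sample 1 or NR ST-HSC sample 3, and 5 without a low-count filter.

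The promoter of Asns is shown as an example of the element that ATF4 binds with C/EBP partners. It lies at chr6:7693210-7693459 on the minus strand, and capitals mark TGATGNAA, searched on both strands.
Asns: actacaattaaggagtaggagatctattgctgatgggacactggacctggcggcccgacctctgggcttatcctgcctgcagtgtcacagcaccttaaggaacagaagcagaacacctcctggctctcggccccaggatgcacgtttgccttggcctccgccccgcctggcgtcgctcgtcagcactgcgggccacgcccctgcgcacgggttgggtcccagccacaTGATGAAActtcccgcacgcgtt
The match begins 23 bases before the start. This motif occurred in 3.45% of all promoters in the table and in 20% of the 45 promoters matched to 37 of the 46 tested stress response genes. It shares no full match with the p53 half-site, and in the p53 list 0 of 49 promoters held it.

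**Figure D3:**
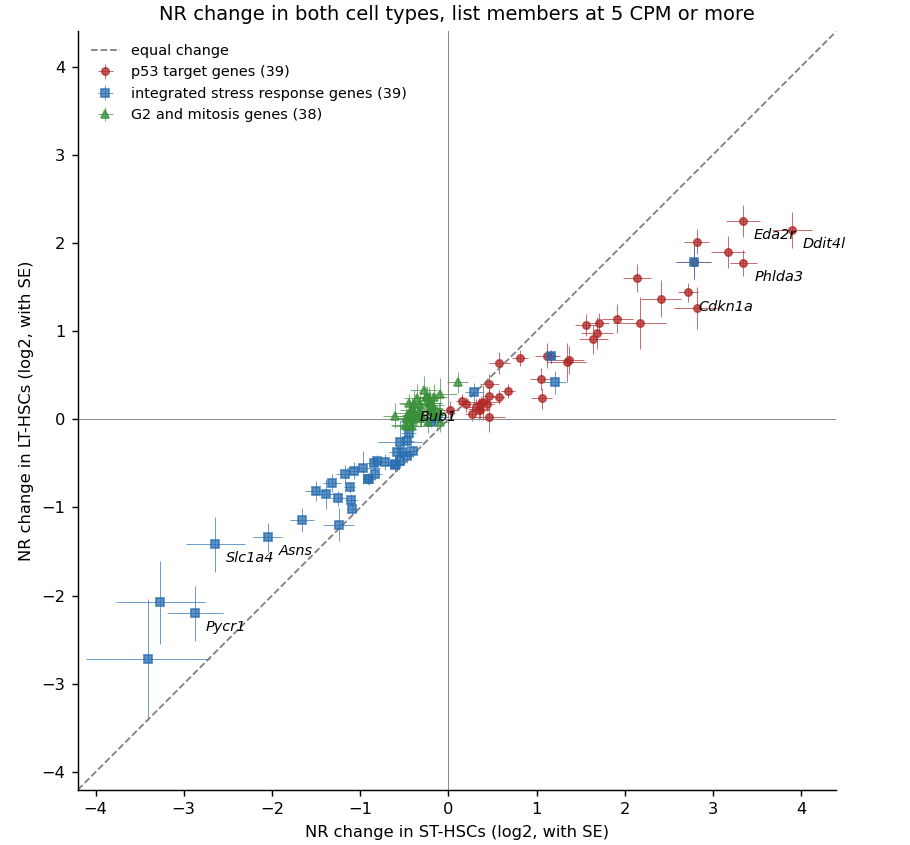
NR change in LT-HSCs (vertical axis) against that in ST-HSCs (horizontal axis), both log2 with SE, for members at 5 CPM or more of 3 gene lists. The p53 targets lie mostly below the dashed line of equal change on the right, the stress response genes above it on the left, and the G2 and mitosis genes above it near 0 on the vertical axis.

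Every tested gene of G2 and mitosis, 38 of 38, had a higher estimated NR change in LT-HSCs, with a median difference of 0.41 and a range of 0.06 to 0.64. The median NR change was 0.08 in LT-HSCs and -0.31 in ST-HSCs. In ST-HSCs 10 members fell and 0 rose, and in LT-HSCs 1 rose and 0 fell. An unadjusted p under 0.05 was reached by 19 members, all higher in LT-HSCs. The adjusted threshold was passed by 0 members, by 1 with DESeq2 and by 4 without NR ST-HSC sample 2, among them Bub1b (adjusted p = 0.0232) and Kif11 (adjusted p = 0.0482). With any other single library left out neither Bub1b nor Kif11 passed, with adjusted p up to 0.949 and 0.904. By contrast, the 40 genes of G1/S and DNA replication had a median difference of -0.01, with 20 members of each sign. Bub1, a kinase of the spindle checkpoint, lay at 119.6, 105.7 and 120.3 CPM in control LT-HSCs and 152.7, 126.7 and 112.8 CPM with NR, and at 134.9, 119.9 and 130.5 CPM in control ST-HSCs and 85.4, 103.8 and 92.8 CPM with NR. The NR ST-HSC libraries were below their controls and those of LT-HSCs overlapped (difference 0.63 ± 0.15, adjusted p = 0.307). Its partner Bub1b had 0.49 ± 0.15, the spindle motor gene Kif11 0.51 ± 0.16 and the DNA topoisomerase gene Top2a 0.45 ± 0.14.

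The single libraries did not behave alike. The median log2(CPM + 0.5) of the 38 members, relative to each gene's mean, was -0.37 and -0.39 in NR ST-HSC samples 1 and 3 but 0.12 in sample 2, which lay among the control ST-HSCs at 0.15, 0.08 and 0.11. NR LT-HSCs lay at 0.19, 0.19 and -0.07, with sample 3 below the controls at 0.01, 0.06 and -0.00. The count of 19 members was 36 without NR ST-HSC sample 2, 29 without NR LT-HSC sample 3, 12 and 7 without NR LT-HSC sample 2 and 1, and 8 without NR ST-HSC sample 3. The median difference stayed between 0.27 and 0.58 over these. For the p53 targets the same score was 0.29, 0.43 and 0.15 in NR LT-HSCs and 0.68, 0.46 and 0.48 in NR ST-HSCs, with no overlap.

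**Figure D4:**
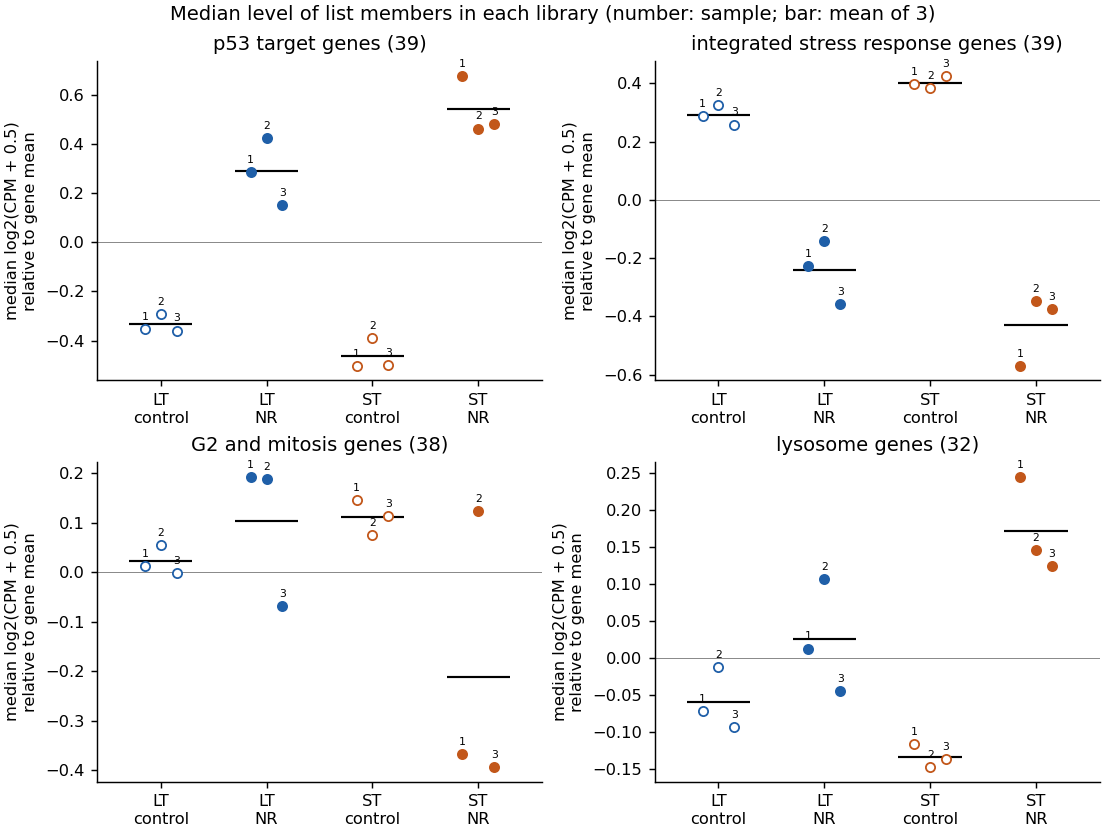
Median log2(CPM + 0.5) of the members of 4 lists at 5 CPM or more, relative to each gene's mean over the 12 libraries (vertical axis), by group; number in parentheses, members. The bar is the mean of 3 libraries. For G2 and mitosis genes NR ST-HSC sample 2, at 0.12, lies apart from samples 1 and 3.

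DNA repair genes had a median difference of 0.14 over 40 members, 30 of them positive. Fanci (0.55 ± 0.16) and Fanca (0.48 ± 0.13), of the Fanconi anemia pathway, fell in ST-HSCs only past the threshold. Prkdc, the kinase of end joining, fell in both (difference 0.45 ± 0.16). Xpc, a damage sensor that p53 also induces, rose in both and had the opposite sign (-0.36 ± 0.12). An unadjusted p under 0.05 was reached by 7 higher and 2 lower members and the adjusted threshold by 0, also with DESeq2. The 7 became 3 without NR LT-HSC sample 1 or NR ST-HSC sample 3, 11 without control LT-HSC sample 1, and 12 without NR LT-HSC sample 3 or NR ST-HSC sample 2.

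Most lysosome genes had a lower estimated NR change in LT-HSCs. In 31 of 33 members the difference was negative, with a median of -0.20, beside 0.05 over all tested genes and -0.003 over those at 5 CPM or more. With NR 8 members rose in LT-HSCs and 19 in ST-HSCs, beside 472 and 1154 of all tested genes, so the ratio of these counts was close to that of all genes. All 8 rose in both and less in LT-HSCs, as did 83.7% of all genes that rose in both. An unadjusted p under 0.05 was reached by 10 members, all lower in LT-HSCs (17 without NR ST-HSC sample 3), and the adjusted threshold by 0 (5 with DESeq2). Cd68, a lysosomal membrane glycoprotein best known from macrophages, went from 8.99, 10.9 and 8.09 CPM to 18.5, 15.4 and 16.2 CPM in LT-HSCs. In ST-HSCs it went from 5.97, 5.36 and 5.03 CPM to 33.9, 18.1 and 21.5 CPM, with NR sample 1 well above the other two. The difference was -1.33 ± 0.29 (adjusted p = 0.263). The lipase gene Lipa (-0.51 ± 0.14), Psap, the precursor of the saposins (-0.33 ± 0.08), and the progranulin gene Grn (-0.29 ± 0.08) also rose in both.

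The summed level of monocyte, macrophage and dendritic markers moved with this group. For 19 monocyte, macrophage and dendritic markers it was 371 to 404 CPM in control and 403 to 508 CPM in NR LT-HSCs, and 341 to 358 CPM in control and 484 to 585 CPM in NR ST-HSCs. Lyz2 and Fcer1g, at means of 324 and 71.7 CPM, made up most of this sum, and 4 of the 19 reached a mean of 5 CPM. The sum therefore does not show that these markers rose together. None of the 19 was at 0 in all libraries, and Cd68 is one of them. Csf1r averaged 2.10 CPM, Cd14 0.96 CPM and Itgam 1.08 CPM. The sum of 17 neutrophil and granule markers overlapped between NR and control in both cell types. It was 196 to 217 CPM in control and 170 to 321 CPM in NR LT-HSCs. In ST-HSCs these ranges were 170 to 236 CPM and 214 to 304 CPM. Of 15 tested monocyte, macrophage and dendritic markers, 11 had a negative difference and 4 a positive one. At an unadjusted p under 0.05, 3 had a lower NR change in LT-HSCs (5 without NR sample 3 of both cell types) and 0 a higher one. The part of such cells in the lysosome result was not tested, and in bulk samples fewer cells of a type and less RNA per cell cannot be told apart.

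Antioxidant genes controlled by NRF2 had a negative difference in 33 of 38 members (median -0.13). So did 30 of 37 respiratory complex I genes and 70 of 82 cytosolic ribosomal protein genes, with medians of -0.02 and -0.07. A share of this size was thus not particular to NRF2 genes. An unadjusted p under 0.05 was reached by 8 NRF2 genes, all lower in LT-HSCs, a count that was 15 without NR LT-HSC sample 2 and 13 without NR ST-HSC sample 3. Osgin1 (-0.91 ± 0.19), an oxidative stress-induced gene, the glutathione transferase gene Gstm1 (-0.75 ± 0.18) and Me1, which makes NADPH (-0.63 ± 0.19), rose in both cell types. Gpx1, the glutathione peroxidase, rose in ST-HSCs only past the threshold (-0.49 ± 0.10). Nqo1, the quinone reductase often taken as the pathway's readout, rose in both, with a difference of -0.39 and a 95% interval of -0.91 to 0.13. Of the iron and heme genes, 5 of 26 had a lower NR change in LT-HSCs at an unadjusted p under 0.05 and 0 a higher one (2 to 3 lower without control LT-HSC sample 2, NR LT-HSC sample 3, control ST-HSC sample 3 or NR ST-HSC sample 2, and 8 without NR ST-HSC sample 3). They included the ferritin light chain gene Ftl1 (-0.38 ± 0.15), Ncoa4, the receptor for ferritin breakdown (-0.46 ± 0.11), and the biliverdin reductase gene Blvrb (-0.45 ± 0.20). The iron exporter gene Slc40a1 (-0.48, 95% interval -1.36 to 0.41) and the heme oxygenase gene Hmox1 (-0.43, -1.57 to 0.70) rose in both with wide intervals.

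Inflammatory and antigen presentation genes mostly had differences of the same sign, as had the complex I and ribosomal protein genes. Of 26 NF-kB and inflammatory genes 21 were negative (median -0.33) and 6 reached an unadjusted p under 0.05, all lower in LT-HSCs. Traf1, a signalling adaptor (-0.85 ± 0.20), rose in both, and the adhesion receptor gene Icam1 (-0.49 ± 0.16) rose in ST-HSCs only past the threshold. Of 23 MHC and antigen presentation genes 20 were negative (median -0.17), with 6 lower at that p and 0 higher (3 lower without control LT-HSC sample 2). H2-Ab1, a class II chain, lay at 34.4, 34.9 and 31.0 CPM in NR ST-HSCs, above all other groups, which ran from 22.5 to 26.8 CPM (-0.50 ± 0.12). At that p 3.17% of all tested genes were lower and 2.89% higher. Of 48 interferon response genes 4 were lower and 1 higher, with a median of -0.13. Their count of 4 was 15 without NR LT-HSC sample 1 and 7 without control LT-HSC sample 3 or NR ST-HSC sample 3. Irf1, a transcription factor of that response, rose in ST-HSCs only past the threshold (-0.58 ± 0.13), and the interferon-induced GTPase gene Ifi47 fell in both, less in LT-HSCs (0.27 ± 0.10). All of these differences missed the adjusted threshold. With DESeq2, 3 inflammatory, 1 antigen presentation and 1 interferon response gene passed it.

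Stem cell and progenitor genes moved both ways. Of 35 long-term HSC genes, 7 had a lower and 5 a higher NR change in LT-HSCs at an unadjusted p under 0.05, with a median of 0.04. Over all tested genes these shares were 3.17% and 2.89%. The 5 became 2 or 3 without control LT-HSC sample 3, NR LT-HSC sample 1 or 2, control ST-HSC sample 2, or NR ST-HSC sample 1 or 3. Procr, the gene of the endothelial protein C receptor EPCR, lay at 11.25, 12.02 and 10.94 CPM in control LT-HSCs and 17.8, 20.7 and 18.7 CPM with NR. In ST-HSCs it went from 1.41, 2.58 and 1.90 CPM to 9.57, 5.06 and 10.8 CPM (difference -1.37 ± 0.35). The difference passed the adjusted threshold without NR ST-HSC sample 2 (adjusted p = 0.0446), but not with any other single library left out (adjusted p up to 0.804). The stem cell transcription factor gene Hlf rose in ST-HSCs only past the threshold (-0.42 ± 0.12). Mmrn1, a platelet protein gene (0.37 ± 0.11), had a positive difference, and with Vwf it is among 5 of 23 megakaryocyte and platelet markers that did so at an unadjusted p under 0.05 (0 lower). That count was 3 without NR LT-HSC sample 1 or 2 or NR ST-HSC sample 1, and 2 without NR ST-HSC sample 3. The summed level of these 23 markers was 6700 to 7430 CPM in control and 5450 to 6920 CPM in NR LT-HSCs, and 6210 to 6730 CPM in control and 4700 to 5760 CPM in NR ST-HSCs.

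The 4 progenitor genes with the smallest p, Cd27, Tespa1, Flt3 and Cd34, had higher levels in control ST-HSCs than in control LT-HSCs without overlap. Cd27, a TNF receptor family member, fell with NR from 87.0, 93.3 and 84.6 CPM to 65.1, 61.8 and 53.3 CPM in LT-HSCs. In ST-HSCs it lay at 114.2, 120.7 and 113.1 CPM without and 116.3, 110.1 and 106.7 CPM with NR, an overlap (difference -0.49 ± 0.11, adjusted p = 0.274). Tespa1, a signalling protein of lymphoid cells, fell in LT-HSCs and overlapped in ST-HSCs (-1.27 ± 0.30). Flt3, the cytokine receptor of multipotent progenitors, lay at 11.98, 12.78 and 13.65 CPM in control and 8.58, 6.63 and 11.5 CPM in NR LT-HSCs, and passed the threshold in neither cell type (-1.02 ± 0.28). Over the 26 progenitor genes 5 were lower and 2 higher at an unadjusted p under 0.05, with 3 lower without NR LT-HSC sample 2, 1 higher without control ST-HSC sample 1, and 0 higher without NR LT-HSC sample 1 or 2 or NR ST-HSC sample 3. Of the sort markers, Cd34 differed by -0.26 ± 0.10 (adjusted p = 0.643), Kit by -0.05 (95% interval -0.24 to 0.14), Ly6a by -0.57 (-1.30 to 0.15), Slamf1, the gene of CD150, by 0.24 (-0.18 to 0.66) and Cd48 by 0.97 (-0.44 to 2.38).

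Of the 31 genes of NAD synthesis and consumption, 0 passed the adjusted threshold, also with DESeq2 and limma-voom. The difference was negative in 15 and positive in 16 (median 0.05). At an unadjusted p under 0.05, 3.17% of all tested genes had a lower NR change in LT-HSCs and 2.89% a higher one. Of the NAD genes 2 had a lower one at that p, Naprt, the enzyme for nicotinic acid (-0.52), and Parp10 (-0.31), and 0 a higher one. These counts were 1 and 0 without control LT-HSC sample 1 or NR ST-HSC sample 2, 3 and 1 without NR LT-HSC sample 1, and 2 and 1 without control LT-HSC sample 2, NR LT-HSC sample 3 or NR ST-HSC sample 1. Nampt, the rate-limiting enzyme of the salvage pathway, had a difference of -0.08 with a 95% interval of -0.39 to 0.22. Nmrk1, one of the NR kinases, had -0.11 (-0.56 to 0.34). Nnmt lay under 1.2 CPM in all libraries, and its interval of -4.18 to 8.09 says nothing. For the 7 sirtuin genes, whose enzymes consume NAD, every interval lay within 1 log2 unit of 0. Sirt1 had the largest, 0.28 (-0.16 to 0.72).

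Respiratory chain and ribosomal protein genes had median falls of similar size in both cell types. The 37 complex I genes had a median change of -0.32 in LT-HSCs and -0.28 in ST-HSCs. Their differences ran from -0.15 to 0.12 and were negative in 30 of them. All 37 intervals lay within 1 log2 unit of 0, and 0 members reached an unadjusted p under 0.05. The 82 cytosolic ribosomal protein genes had medians of -0.30 and -0.24. The difference was negative in 70 of them, with a median of -0.07. The number of lower members at that p was 2, but 33 without NR ST-HSC sample 3 and 22 without NR sample 3 of both cell types, the libraries with the most reads in no gene. Without control LT-HSC sample 2, NR LT-HSC sample 3 or control ST-HSC sample 3 it was 0, and 1 without control ST-HSC sample 2 or NR ST-HSC sample 1 or 2. A missed threshold does not show that the responses were the same. It limits the differences of these genes to the intervals given.

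**Figure D5:**
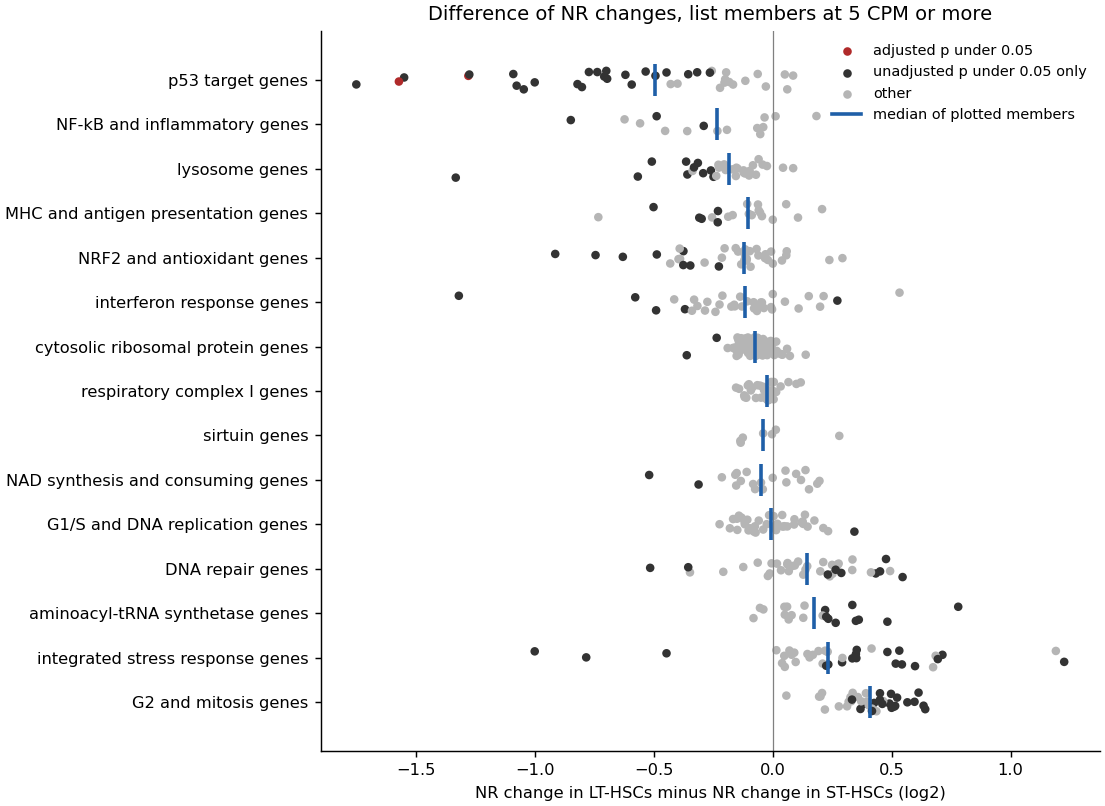
Difference of the NR changes (horizontal axis, log2, LT-HSC minus ST-HSC) for each member at 5 CPM or more of 15 gene lists, with the median of the plotted members (blue bar). Red marks an adjusted p under 0.05 and dark grey only an unadjusted one. The p53 targets spread furthest to the left, and the G2 and mitosis genes all lie to the right of 0.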

How the data were processed

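RNA of 12 libraries of sorted, cultured mouse HSCs was analysed as 1 table of raw counts per Ensembl gene, which the authors deposited. Per the labels' protocols, cDNA came from 2.5 ng RNA by SMART-seq v4 and libraries from Nextera XT. Per the submitters' processing notes, FastQC 0.11.2, STAR 2.5.0b and HTSeq 0.6.1 were used. Build, annotation, strand setting and read filters were not given in the sources used here. Without a known strand setting, reads of a gene and an antisense partner cannot be told apart. Groups were taken from the labels, and all 12 columns were used.

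Of 53465 genes, 53274 had a symbol in the GENCODE M21 tables. Reads assigned to no gene (8.69% to 28.5% in no feature) stayed out of library sizes and tests. The test was edgeR 4.0.16 (R 4.3.3; quasi-likelihood, two-sided) on 4 group means, with TMM factors. Genes had to pass filterByExpr (groups as design, count of at least 10, total of at least 15). Benjamini-Hochberg adjustment ran over 19830 genes, with a threshold of 0.05. Residual degrees of freedom were 8. CPM were taken from gene counts and TMM-scaled library sizes. The step was tested on simulated data with 200 changed genes: 81 were called, 3 of them false.

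The gene lists, the contrast and the named genes were chosen with earlier results of these data known. Named genes were the called ones, then those with the smallest p at 5 CPM or more up to 20, and a set panel. Predicted genes, clones, pseudogenes and genes without a symbol of their own were left out of the 20. Examples from lists, 4 per list with the smallest p, counts at an unadjusted p under 0.05, counts of genes with opposite directions and the settings for single lists were chosen after values were seen, as were Naprt and Parp10.

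Alternatives were other size factors, DESeq2 1.42.0, limma 3.58.1 (voom with quality weights), no and a stricter filter, the sample number as a block, the share of reads in no feature as a covariate, and leaving libraries out. Leaving out sample 3 of all 4 groups was added after seeing the data. No 2 libraries of a group were duplicates (chi-square per degree of freedom 6.31 to 37.6 over 12 pairs). Some genes are not reported here.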

Additional observations from a re-analysis of the deposited data

Results flagged for a closer look

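For 2 genes the NR change differed between the cell types by the test of the difference itself (edgeR's quasi-likelihood test): Cdkn1a by -1.28 (adjusted p = 0.0235) and Phlda3 by -1.57 (adjusted p = 0.0478). For both genes all 3 NR samples of each cell type lay above all 3 of its controls, and the rise was smaller in LT-HSCs.

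In 2 further named genes every NR sample of one cell type lay on one side of its controls and every NR sample of the other on the opposite side. Rtel1 was higher with NR in LT-HSCs and lower in ST-HSCs, a difference of 0.665 (adjusted p = 0.0779). Lgals1 was lower in LT-HSCs and higher in ST-HSCs, a difference of -1.40 (adjusted p = 0.226). Neither difference passed the threshold as reported. The LT-HSC change missed it too for Rtel1 (adjusted p = 0.0523) and Lgals1 (adjusted p = 0.248). Of the 23 alternatives, the difference of Rtel1 passed in 7 and that of Lgals1 in 4. With 1 library left out Rtel1 passed in 0 runs, and Lgals1 passed without NR ST-HSC sample 2 (adjusted p = 0.0232). With any other single library left out it did not pass (adjusted p up to 0.564).

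Outside the gene counts, the share of reads in no annotated feature was 28.5% in NR LT-HSC sample 3 and 26.2% in NR ST-HSC sample 3, above the highest control library at 17%. Without these 2 libraries Cdkn1a and Phlda3 still passed. Without NR LT-HSC sample 3 alone Phlda3 did not pass, and without sample 3 of all 4 groups neither gene did.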

How the results depend on the processing

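The number of genes called depended on the setting. Beside 2 lower and 0 higher in LT-HSCs, there were 5 and 1 with upper-quartile factors, 95 and 41 with DESeq2, 3 and 2 with limma-voom, 33 and 10 without a low-count filter, 26 and 10 at a mean of 5 CPM or more, and 7 and 3 with the share of reads in no feature as a covariate. Without NR sample 3 of both cell types 2 and 1 were called, and without sample 3 of all 4 groups 0 and 0. Relative log expression factors gave 2 and 0. Leaving out 1 library gave 0 to 7 lower and 0 to 10 higher genes. The 10 came without NR ST-HSC sample 2. With the sample number as a replicate block 12 lower and 3 higher genes were called, and with cell type and number as the block 26 and 6. Of the p53 targets 5 and 8 passed under these blocks. The numbers are not known to pair samples: 13 of 18 same-numbered pairs correlated above 0.1 (range -0.01 to 0.63), and 11 of 12 samples correlated best with their own number. The cause of these changes was not tested. Cdkn1a passed in 15 and Phlda3 in 13 of 23 alternatives. Over all named genes and alternatives, 5 values reversed: Kit with limma-voom (0.008), Hmox1 (0.124) and Nmrk1 (0.114) without sample 3 of all 4 groups, and Nampt (0.014, over single libraries left out -0.28 to 0.014) and Nnmt (-0.971, over these -0.971 to 5.901) without NR LT-HSC sample 3. Of the others 1880 kept their direction and side of the threshold, 142 newly passed it and 18 no longer did. Below 5 CPM the depth limits what can be detected.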
